A study of Mus musculus with 4 samples.

Results

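The genes described here encode the ligands and receptors of axon guidance: the semaphorins with their plexin and neuropilin receptors, the ephrins with their Eph receptors, the netrins with Dcc, neogenin and the Unc5 receptors, and the Slits with the Robo receptors. They were chosen by name among the protein-coding genes of the deposited table (symbols that begin with Sema and a digit, Plxn, Epha, Ephb, Efna, Efnb, Unc5, Slit or Robo and a digit, plus Ntn1, Ntn3, Ntn4, Ntn5, Dcc, Neo1, Nrp1 and Nrp2). The rule found 71 genes of 49585 in the table and of 21973 protein-coding genes, and Ntn3 was not analysed here. Unc50, which encodes a different protein, and Unc5cl, which lacks the netrin-binding part of the receptors, were caught by the letters of their symbols alone, which leaves 69 genes without them. The rule reads the symbols and no measured value.

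RNA was sequenced from the clones 4T1-HM and 4T1-LM, each 1 clone grown from a single cell of 4T1, a mouse line of triple-negative breast cancer. The study describes them as the more and the less metastatic clone. Each clone was cultured for 48 h with DMSO (HM_Ctrl and LM_Ctrl) or with 50 μmol/L deferasirox, DFX (HM_DFX and LM_DFX), an iron chelator taken by mouth. There was 1 library per condition, 4 in all. No difference below has a replicate check and none was tested, and the questions were how the guidance genes differed between the clones and how each clone's levels moved with the chelator.

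Guidance molecules were named for steering growing nerve fibres, and the same proteins regulate adhesion, migration and vessel growth in epithelia and tumours. Semaphorins act through plexins, and most secreted semaphorins need a neuropilin as coreceptor. Ephrins are held in the membrane, so that they signal between touching cells, and they also signal back into the cell that carries them. Netrins attract through Dcc and neogenin and repel through the Unc5 receptors, several of which are known as dependence receptors that trigger cell death when no ligand is bound. Slits repel through Robo receptors.

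Levels are given as fragments per kilobase of exon, scaled to the size of the library (FPKM), which compare genes per length. A gene was carried forward when it reached 1 FPKM or more in any of the 4 libraries, which 12669 genes did. Differences are log2 ratios of FPKM + 1, and a gene is said to have risen, fallen or been called where this reached 2-fold. Ratios of FPKM come from the fragments behind them, with the exact 95% interval that counting error alone allows in parentheses. These intervals hold no culture-to-culture spread. In a culture, fewer cells with a transcript and less of it in each cell cannot be told apart.

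The solved library totals ran from 14363065 fragments in HM_DFX to 21883852 in LM_DFX, and 1 fragment on 1 kb of exon was worth 0.0457 to 0.0696 FPKM. Of 6 genes fixed as a check of iron chelation and the linked hypoxia response, all 6 were higher with DFX than without in both clones, but only Ndrg1 reached 2-fold in 4T1-HM, against 5 of the 6 in 4T1-LM. In 4 of them the log2 change in 4T1-HM was lower than that in 4T1-LM by 2-fold or more, and 4 were already called higher in HM_Ctrl than in the other untreated library. Ndrg1 went from 177 to 577 FPKM in 4T1-HM and from 49.1 to 613 FPKM in 4T1-LM. Tfrc, the transferrin receptor, went from 102 to 175 FPKM in 4T1-HM and from 107 to 188 FPKM in 4T1-LM. Of 10 mammary epithelial markers, 8 were above 1 FPKM, and the sum over all 10 was 1785 FPKM in HM_Ctrl and 577 in HM_DFX, against 2342 in LM_Ctrl and 1115 in LM_DFX, so it was lower with DFX in both clones. Of the 8, 5 fell in 4T1-HM and 3 fell in 4T1-LM, where Krt19 rose from 46.4 to 103 FPKM, and Krt5 was at 0. Between the untreated clones, Krt19 was higher in HM_Ctrl (101 FPKM), while Krt14 and Cldn4 were lower there than in LM_Ctrl, by log2 differences of -3.99 and -1.22. Among the immune markers, Cd3e and Adgre1 were at 0 and Ptprc reached at most 0.0139 FPKM, while Cd68 stood at 12.9 FPKM in HM_Ctrl and 37.4 in HM_DFX, against 12.3 in LM_Ctrl and 83.1 in LM_DFX. The endothelial markers summed to at most 0.229 FPKM and the fibroblast markers to 3.51 to 5.66. The markers of neurons and glia summed to 3.73 to 9.84 FPKM, with the neuronal genes Rbfox3, Snap25 and Syt1 at 0. Most of this sum was Mbp, at 3.32 FPKM in HM_Ctrl and 5.87 in HM_DFX, against 5.51 in LM_Ctrl and 9.43 in LM_DFX. Tubb3, another marker of neurons, was at 0.352 FPKM in HM_Ctrl and 1.04 in HM_DFX, against 0.544 in LM_Ctrl and 0.367 in LM_DFX. The part of the epithelial and Cd68 shifts in the results below was not tested.

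Of the 71 genes, 40 passed the filter. These were 12 of 20 semaphorins, 6 of 9 plexins, both neuropilins, 8 of 8 ephrins, 8 of 14 Eph receptors, Ntn1, Neo1, Unc5b and Unc50, and no Slit or Robo gene. Epha2, a receptor for the A ephrins, had the highest FPKM of all guidance genes in each of the 4 libraries, at 89.6 in HM_Ctrl and 51.2 in HM_DFX, against 83.8 in LM_Ctrl and 72.3 in LM_DFX. Behind it HM_Ctrl ranked Ephb4 (61.1 FPKM), Nrp2 (54.6) and Neo1 (49.2), whereas LM_Ctrl ranked Plxnb2 (56.2 FPKM), Unc5b (49.0) and Efnb2 (37.0). The FPKM of all 71 genes summed to 582 in HM_Ctrl and 373 in HM_DFX, against 548 in LM_Ctrl and 454 in LM_DFX.

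**Figure D1:**
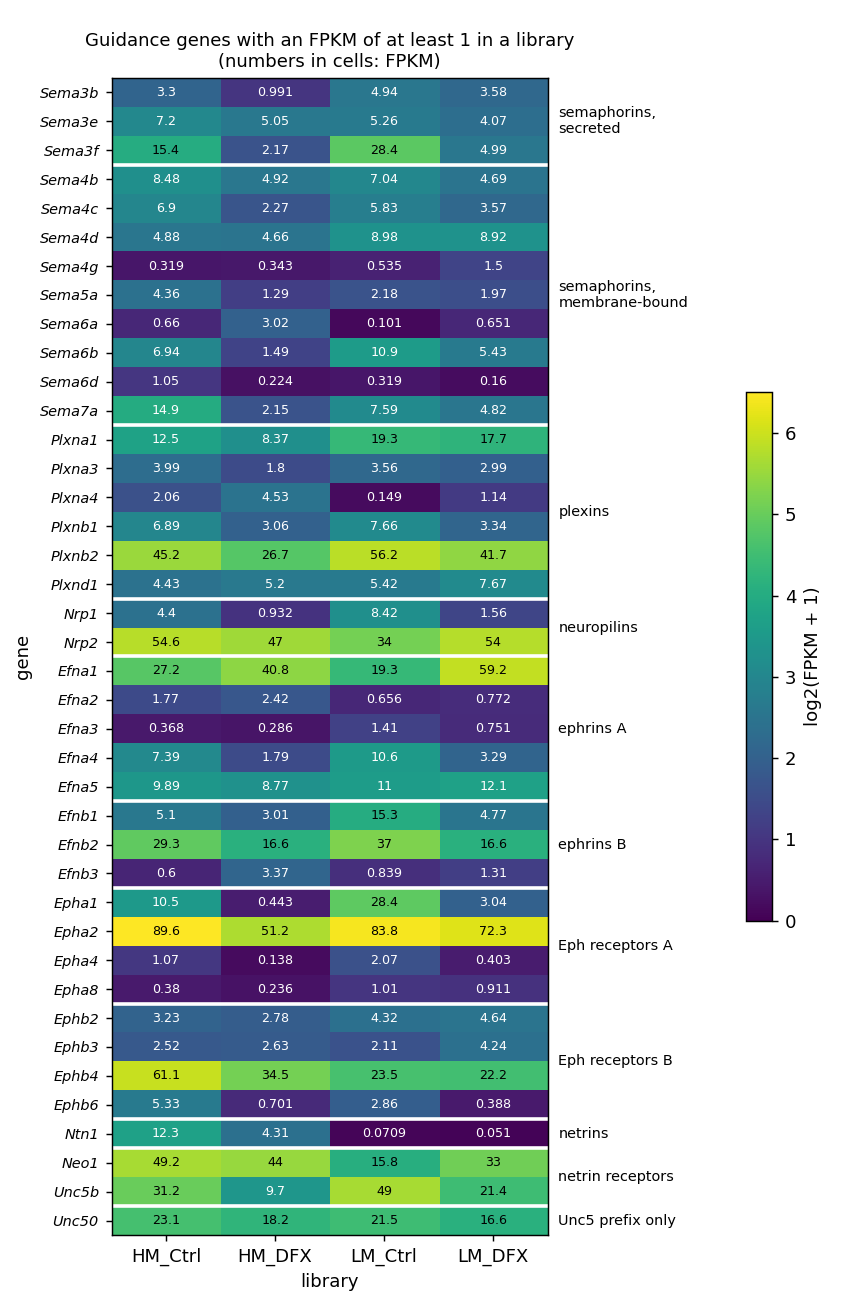
FPKM of the 40 guidance genes that reached 1 FPKM in a library, rows grouped by family and columns by library, with the colour on the log2(FPKM + 1) scale and the FPKM written in each cell. Epha2 is the brightest row in all 4 libraries, and Ntn1 is above 4 FPKM in both 4T1-HM libraries and below 0.1 in both 4T1-LM libraries.

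The other 31 genes did not pass. There were 15 at 0 in all 4 libraries: Dcc, Unc5c, Unc5cl, Unc5d, Robo3, Robo4, Slit1, Epha3, Epha5, Epha6, Epha7, Epha10, Plxna2, Sema3d and Sema5b. A further 9 stayed under 0.1 FPKM: Slit2, Slit3, Robo2, Unc5a, Ntn5, Ephb1, Plxnb3, Plxnc1 and Sema4a. The remaining 7, namely Ntn4, Robo1, Sema3a, Sema3c, Sema3g, Sema4f and Sema6c, had their highest FPKM between 0.222 and 0.958. Epha8, at 1.01 FPKM, and Sema6d, at 1.05, lay just inside the limit, and Ntn4, at 0.958, and Robo1, at 0.853, just outside. Of the genes that passed, 26 were at or above 1 FPKM in all 4 libraries. Sema4g, Sema6a, Sema6d, Efna3 and Epha8 passed through 1 library only, and of these 5 only Sema6a was called in a comparison on the FPKM + 1 scale. Sema6a passed through HM_DFX, where it was highest. Efnb3 passed only through the treated libraries, Ntn1 only through those of 4T1-HM, and Epha4 and Ephb6 only through the untreated ones. With no filter, the same guidance genes were called in each comparison.

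Between the untreated clones, HM_Ctrl had 4 guidance genes at a higher level than LM_Ctrl and 2 at a lower one. Over all genes carried forward, 3.65% were called higher and 3.15% lower, against 10.0% and 5.0% of the 40. The median log2 difference was -0.14 over the guidance genes and 0.01 over all genes. The 4 called higher were Ntn1, Neo1, Plxna4 and Ephb4, and the 2 called lower were Efnb1 and Epha1. With a pseudocount of 0.1, Efna2, Sema6a and Sema6d were also called higher, and Efna3 and Epha8 lower.

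Ntn1 (ENSMUSG00000020902, chromosome 11, 68209364 to 68400823, minus strand, build mm10), a secreted netrin, stood furthest apart. It was at 12.3 FPKM in HM_Ctrl and 4.31 in HM_DFX, against 0.0709 in LM_Ctrl and 0.0510 in LM_DFX. Both 4T1-LM values rest on 7 fragments each, above the FPKM that 3 fragments would give there (0.0304 and 0.0218). Its FPKM ratio of HM_Ctrl over LM_Ctrl was 173 (83.7 to 431).

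Neo1 (ENSMUSG00000032340, chromosome 9, 58874687 to 59036441, minus strand) encodes neogenin, a receptor for netrins and for repulsive guidance molecules. It was at 49.2 FPKM in HM_Ctrl and 44.0 in HM_DFX, against 15.8 in LM_Ctrl and 33.0 in LM_DFX. LM_Ctrl is the low library of the 4, and the HM_Ctrl level was 3.11 times its level (2.96 to 3.26). Netrin and neogenin were thus both higher in untreated 4T1-HM, while Unc5b, the repulsive netrin receptor, stood lower in HM_Ctrl (31.2 FPKM) than in LM_Ctrl (49.0 FPKM) by a log2 difference of -0.63.

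Ephb4 (ENSMUSG00000029710, chromosome 5, 137350109 to 137378669, plus strand), whose preferred ligand is the ephrin encoded by Efnb2, was at 61.1 FPKM in HM_Ctrl and 34.5 in HM_DFX, against 23.5 in LM_Ctrl and 22.2 in LM_DFX. Both 4T1-HM libraries were above both 4T1-LM libraries, with a ratio of 2.60 (2.46 to 2.75) without drug. Plxna4, a plexin for secreted and membrane-bound semaphorins, was at 2.06 FPKM in HM_Ctrl and 4.53 in HM_DFX, against 0.149 in LM_Ctrl and 1.14 in LM_DFX. LM_Ctrl gave 33 fragments for it and HM_Ctrl 487, a ratio of FPKM of 13.9 (9.74 to 20.4).

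Efnb1, an ephrin of the B class, ran the other way, at 5.10 FPKM in HM_Ctrl and 3.01 in HM_DFX, against 15.3 in LM_Ctrl and 4.77 in LM_DFX, so that LM_Ctrl was the high library and 3.01 times HM_Ctrl (2.63 to 3.44). Epha1 (ENSMUSG00000029859, chromosome 6, 42358487 to 42373268, minus strand), a receptor for A ephrins, was at 10.5 FPKM in HM_Ctrl and 0.443 in HM_DFX, against 28.4 in LM_Ctrl and 3.04 in LM_DFX. LM_Ctrl was 2.72 times HM_Ctrl (2.49 to 2.97), and both treated libraries were below both untreated ones. The counting interval of the ratio left out 1 for 35 of the 40 genes in this comparison.

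**Figure D2:**
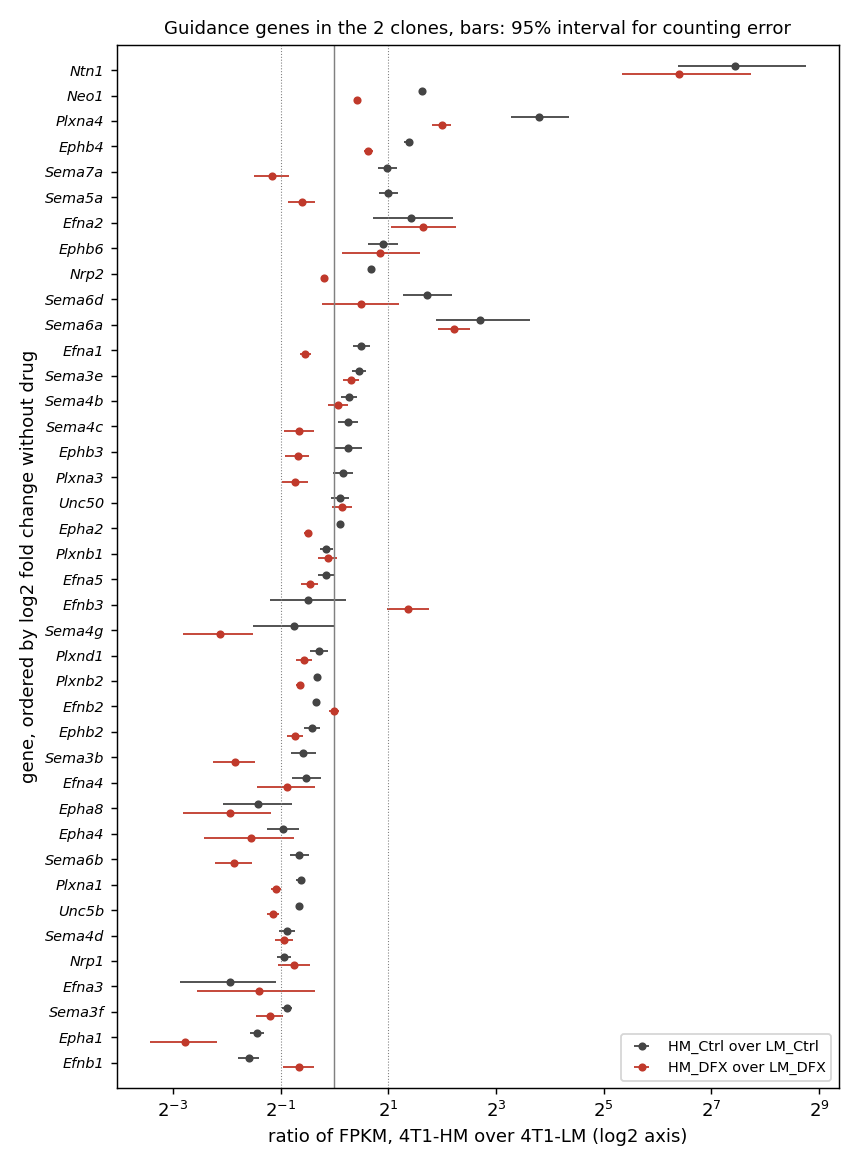
Ratio of FPKM in 4T1-HM over 4T1-LM on a log2 axis for the 40 guidance genes, without drug (grey) and with DFX (red), with points at the ratio, bars for the 95% counting interval and dotted lines at 0.5 and 2. Ntn1 lies at 173 without drug and 84.7 with DFX, and Epha1 lies at the other end with DFX.

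With DFX, more guidance genes fell than rose in both clones. In 4T1-HM, 12 fell and 2 rose, which is 30.0% and 5.0% of the 40, against 12.4% lower and 6.93% higher over all genes. The 2 that rose, Sema6a and Efnb3, passed the filter only through treated libraries, and Ephb6, which fell, only through untreated ones. In 4T1-LM, 9 fell and 2 rose, which is 22.5% and 5.0% of the 40, against 8.72% lower and 7.09% higher over all genes. The median log2 change was -0.71 in 4T1-HM, where that of all genes was -0.10, and -0.20 in 4T1-LM, where that of all genes was -0.04. At any size of change, 32 of the 40 were lower in HM_DFX than in HM_Ctrl, against 55.9% of all genes, and 28 of the 40 were lower in LM_DFX than in LM_Ctrl, against 52.6% of all genes. When libraries were scaled by the median ratio of their genes, the median of all genes in 4T1-HM moved from -0.10 to 0.01 and that of the guidance genes from -0.71 to -0.60, and the same 12 genes were called lower. That scaling also moved the split over all genes in 4T1-HM from 878 higher and 1568 lower to 1133 and 1277.

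The responses of the 2 clones come from separate libraries. There were 6 genes that fell in both, Sema3f, Nrp1, Efna4, Epha1, Ephb6 and Unc5b, which is 50.0% of the 12 that fell in 4T1-HM and 66.7% of the 9 that fell in 4T1-LM. Over all genes, 674 fell in both, 5.32% of those carried forward and 43.0% and 61.0% of the genes that fell in 4T1-HM and in 4T1-LM. No guidance gene rose in both clones past 2-fold on the FPKM + 1 scale, against 3.46% of all genes. This rests on the pseudocount, since with 0.1 in place of 1 both Sema6a and Plxna4 passed 2-fold upward in both clones.

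**Figure D3:**
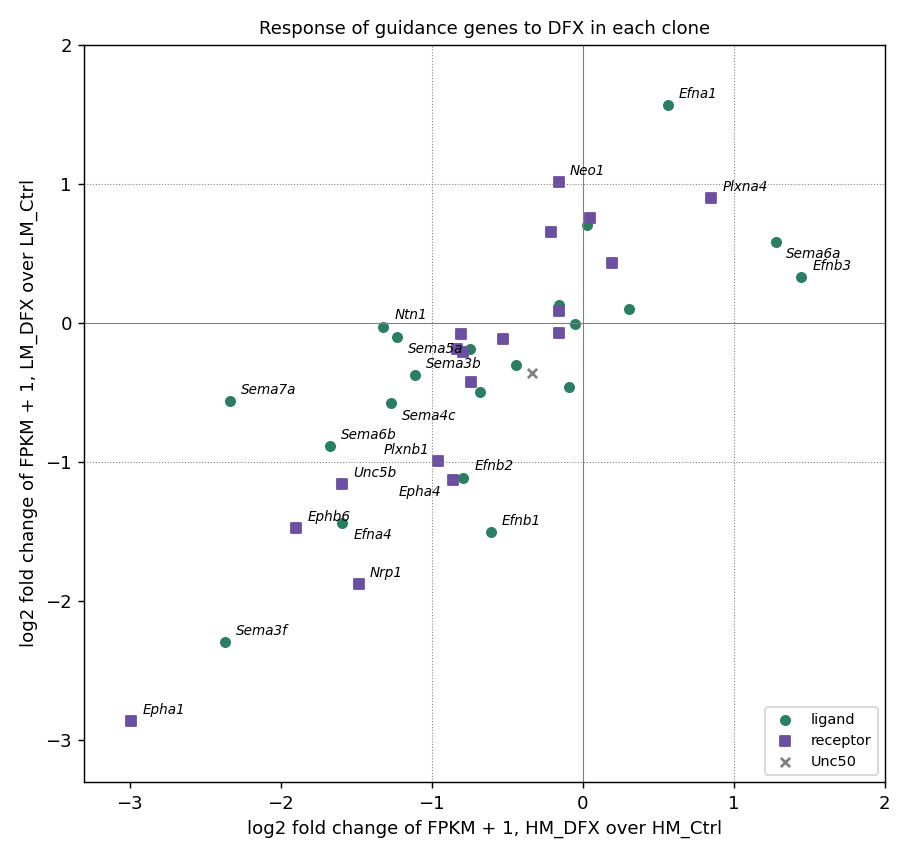
Log2 change of FPKM + 1 with DFX in 4T1-HM (horizontal) and 4T1-LM (vertical) for the 40 guidance genes, ligands as circles, receptors as squares and Unc50 as a cross, with dotted lines at 2-fold. The 6 genes in the lower left corner fell in both clones, and Sema3b, Sema4c, Sema5a, Sema6b, Sema7a and Ntn1 lie past the lower line for 4T1-HM only.

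Of these 6, promoters are shown for the 4 with the highest FPKM that have an entry in the RefSeq promoter table (build GRCm38.p6, 250 bases before the start of transcription to 50 after, 300 in all, printed on the gene's own strand). They are shown because the 4 genes fell together under an iron chelator, and chelators of iron are known to stabilise the hypoxia-inducible factors. Capitals mark GCGTG, 1 of the core motifs of those factors, which reads CACGC where it lies on the other strand. Sema3f is named only.
Unc5b, chr10:60831532-60831831, minus strand: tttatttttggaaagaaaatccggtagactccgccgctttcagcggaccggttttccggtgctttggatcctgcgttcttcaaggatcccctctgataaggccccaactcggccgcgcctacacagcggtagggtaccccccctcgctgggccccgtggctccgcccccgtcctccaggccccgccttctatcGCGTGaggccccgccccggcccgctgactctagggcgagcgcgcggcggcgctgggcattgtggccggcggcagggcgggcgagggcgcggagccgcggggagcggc
Epha1, chr6:42373219-42373518, minus strand: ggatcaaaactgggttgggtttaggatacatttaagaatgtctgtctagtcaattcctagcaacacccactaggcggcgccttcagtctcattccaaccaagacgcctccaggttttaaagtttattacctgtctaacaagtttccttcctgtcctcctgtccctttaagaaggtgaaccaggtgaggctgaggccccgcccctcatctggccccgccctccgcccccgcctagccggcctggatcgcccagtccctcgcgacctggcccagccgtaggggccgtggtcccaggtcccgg
Efna4, chr3:89337979-89338278, minus strand: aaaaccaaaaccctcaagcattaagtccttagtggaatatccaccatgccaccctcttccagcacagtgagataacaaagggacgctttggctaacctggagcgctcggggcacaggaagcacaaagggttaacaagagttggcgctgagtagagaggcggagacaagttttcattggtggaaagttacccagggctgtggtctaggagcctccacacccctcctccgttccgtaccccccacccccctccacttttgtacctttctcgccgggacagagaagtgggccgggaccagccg
Nrp1, chr8:128358823-128359122, plus strand: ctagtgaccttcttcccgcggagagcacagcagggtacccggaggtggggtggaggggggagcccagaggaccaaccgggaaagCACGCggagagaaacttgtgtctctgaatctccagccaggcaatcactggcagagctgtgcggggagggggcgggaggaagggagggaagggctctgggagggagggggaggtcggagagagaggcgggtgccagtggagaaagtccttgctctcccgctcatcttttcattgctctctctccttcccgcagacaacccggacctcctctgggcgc

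The core ACGTG was searched on both strands, and so were its variant GCGTG and the box CACGTG, which contains the first core on both strands. Unc5b and Nrp1 each hold 1 GCGTG in the window, and these letters are not in the windows of Epha1 and Efna4. Of the 5 genes of the 6 with an entry, 3 hold ACGTG or GCGTG (Ephb6, Nrp1 and Unc5b). All windows listed there number 32851, and 43.8% of them hold either core, with ACGTG in 19.6%, GCGTG in 32.4% and CACGTG in 7.15%. Of the 77 windows of the 61 guidance genes with an entry, 50.6% hold either core, with ACGTG in 16.9%, GCGTG in 41.6% and CACGTG in 6.49%. Of the 42 windows of the 33 guidance genes that passed the filter, 66.7% hold either core, a higher share than the 60.0% of the 5. A match describes the letters and is no evidence of binding.

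Among the secreted semaphorins, which repel or attract cells at a distance, Sema3f, known as a ligand for Nrp2, had the largest change. It was at 15.4 FPKM in HM_Ctrl and 2.17 in HM_DFX, against 28.4 in LM_Ctrl and 4.99 in LM_DFX, with both treated libraries below both untreated ones. Its level fell 7.09-fold in 4T1-HM (6.02 to 8.40) and 5.68-fold in 4T1-LM (5.18 to 6.23). Sema3b was at 3.30 FPKM in HM_Ctrl and 0.991 in HM_DFX, against 4.94 in LM_Ctrl and 3.58 in LM_DFX. HM_DFX is its low library, after a fall of 3.33-fold (2.54 to 4.41), whereas the ratio of LM_Ctrl over LM_DFX was 1.38 (1.19 to 1.60). Sema3e, which can act through plexin D without a neuropilin, was not called, with 7.20 FPKM in HM_Ctrl and 5.05 in HM_DFX, against 5.26 in LM_Ctrl and 4.07 in LM_DFX.

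Of the 9 membrane-bound semaphorins that passed the filter, 4 fell and 1 rose in 4T1-HM, against 12.4% lower and 6.93% higher over all genes. None passed 2-fold in 4T1-LM, against 8.72% lower and 7.09% higher over all genes. With a pseudocount of 0.1, Sema6d also fell in 4T1-HM, and Sema4g and Sema6a rose in 4T1-LM. Sema7a, which is attached to the membrane by a lipid anchor and signals through integrins and plexin C, was at 14.9 FPKM in HM_Ctrl and 2.15 in HM_DFX, against 7.59 in LM_Ctrl and 4.82 in LM_DFX. HM_Ctrl was its high library and HM_DFX its low one, a fall of 6.94-fold (5.64 to 8.61), where the ratio in 4T1-LM was 1.58 (1.36 to 1.83). The receptor gene Plxnc1 reached at most 0.0457 FPKM in these cells.

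Sema6b was at 6.94 FPKM in HM_Ctrl and 1.49 in HM_DFX, against 10.9 in LM_Ctrl and 5.43 in LM_DFX, and fell 4.66-fold (3.69 to 5.95) in 4T1-HM. Its log2 change in 4T1-LM was -0.89. Sema5a, which carries thrombospondin repeats, was at 4.36 FPKM in HM_Ctrl and 1.29 in HM_DFX, against 2.18 in LM_Ctrl and 1.97 in LM_DFX, so HM_Ctrl was high and HM_DFX low, and the ratio of LM_DFX over HM_DFX was 1.53 (1.29 to 1.81). It fell 3.39-fold (2.90 to 3.98) in 4T1-HM. Sema4c, a ligand of plexin B receptors, was at 6.90 FPKM in HM_Ctrl and 2.27 in HM_DFX, against 5.83 in LM_Ctrl and 3.57 in LM_DFX, a fall of 3.04-fold (2.53 to 3.66) in 4T1-HM.

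The semaphorin that rose was Sema6a, a ligand of A plexins. It was at 0.660 FPKM in HM_Ctrl and 3.02 in HM_DFX, against 0.101 in LM_Ctrl and 0.651 in LM_DFX, on 97, 381, 14 and 125 fragments. HM_DFX was high, 4.58 times HM_Ctrl (3.66 to 5.78), and the ratio in 4T1-LM was 6.42 (3.69 to 12.1) although both levels there were under 1 FPKM and the gene was not called.

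The other membrane-bound semaphorins were not called in any comparison. Sema4d, the ligand of plexin B, was at 4.88 FPKM in HM_Ctrl and 4.66 in HM_DFX, against 8.98 in LM_Ctrl and 8.92 in LM_DFX, with the 4T1-LM libraries above by a ratio of 1.84 (1.65 to 2.05) without drug and 1.91 (1.71 to 2.14) with DFX. Sema4b was at 8.48 FPKM in HM_Ctrl and 4.92 in HM_DFX, against 7.04 in LM_Ctrl and 4.69 in LM_DFX. The weakest were near the filter. Sema4g was at 0.319 FPKM in HM_Ctrl and 0.343 in HM_DFX, against 0.535 in LM_Ctrl and 1.5 in LM_DFX, and Sema6d was at 1.05 FPKM in HM_Ctrl and 0.224 in HM_DFX, against 0.319 in LM_Ctrl and 0.160 in LM_DFX.

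The neuropilins, coreceptors for secreted semaphorins and for vascular endothelial growth factor, moved apart. Nrp1 was at 4.40 FPKM in HM_Ctrl and 0.932 in HM_DFX, against 8.42 in LM_Ctrl and 1.56 in LM_DFX, and fell 4.72-fold (3.91 to 5.73) in 4T1-HM and 5.40-fold (4.78 to 6.11) in 4T1-LM. Both treated libraries were below both untreated ones. Nrp2 was at 54.6 FPKM in HM_Ctrl and 47.0 in HM_DFX, against 34.0 in LM_Ctrl and 54.0 in LM_DFX, with LM_Ctrl the low library, and it was not called. Nrp2 therefore made up 92.5% of the summed neuropilin FPKM in HM_Ctrl and 80.2% in LM_Ctrl, and 98.1% and 97.2% with DFX. Vegfa, a growth factor that binds neuropilins, went from 31.9 to 63.5 FPKM in 4T1-HM and from 30.9 to 74.5 FPKM in 4T1-LM.

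None of the 6 plexins that passed was called with DFX in either clone on the FPKM + 1 scale. Over all genes, 12.4% were called lower and 6.93% higher in 4T1-HM, and 8.72% and 7.09% in 4T1-LM. With a pseudocount of 0.1, Plxna4 was called higher and Plxnb1 lower in both clones, and Plxna3 lower in 4T1-HM. Plxnb2, which took 53.7% to 60.8% of the summed plexin FPKM in the 4 libraries, was at 45.2 FPKM in HM_Ctrl and 26.7 in HM_DFX, against 56.2 in LM_Ctrl and 41.7 in LM_DFX. Plxnb1 came closest to the threshold in both clones, at log2 changes of -0.96 in 4T1-HM and -0.995 in 4T1-LM, from 6.89 FPKM in HM_Ctrl to 3.06 in HM_DFX and from 7.66 FPKM in LM_Ctrl to 3.34 in LM_DFX. Both untreated libraries were above both treated ones. Plxna1 was at 12.5 FPKM in HM_Ctrl and 8.37 in HM_DFX, against 19.3 in LM_Ctrl and 17.7 in LM_DFX, and Plxna3 was at 3.99 FPKM in HM_Ctrl and 1.80 in HM_DFX, against 3.56 in LM_Ctrl and 2.99 in LM_DFX. Plxnd1, the receptor of Sema3e, was at 4.43 FPKM in HM_Ctrl and 5.20 in HM_DFX, against 5.42 in LM_Ctrl and 7.67 in LM_DFX. Plxna4 was higher with DFX in both clones, by log2 changes of 0.85 and 0.90, just short of 2-fold on this scale. Its FPKM ratio with over without the drug was 2.20 (1.96 to 2.46) in 4T1-HM and 7.67 (5.36 to 11.3) in 4T1-LM.

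Ephrins of the A class are tied to the membrane by a lipid anchor. Their most abundant gene, Efna1, known to respond to tumour necrosis factor in vessels, was at 27.2 FPKM in HM_Ctrl and 40.8 in HM_DFX, against 19.3 in LM_Ctrl and 59.2 in LM_DFX. Both treated libraries were above both untreated ones, and the rise was 3.06-fold (2.79 to 3.37) in 4T1-LM against a ratio of 1.5 (1.37 to 1.64) in 4T1-HM. Efna4 went the other way, at 7.39 FPKM in HM_Ctrl and 1.79 in HM_DFX, against 10.6 in LM_Ctrl and 3.29 in LM_DFX, with falls of 4.14-fold (2.95 to 5.95) and 3.23-fold (2.59 to 4.05). Efna1 thus went from 58.4% of the summed A ephrin FPKM in HM_Ctrl to 75.5% in HM_DFX and from 44.9% in LM_Ctrl to 77.8% in LM_DFX, and Efna4 from 15.9% to 3.30% and from 24.7% to 4.32%. Efna5 was at 9.89 FPKM in HM_Ctrl and 8.77 in HM_DFX, against 11.0 in LM_Ctrl and 12.1 in LM_DFX, close in all 4. Efna2 was at 1.77 FPKM in HM_Ctrl and 2.42 in HM_DFX, against 0.656 in LM_Ctrl and 0.772 in LM_DFX, higher in both 4T1-HM libraries, and Efna3 was at 0.368 FPKM in HM_Ctrl and 0.286 in HM_DFX, against 1.41 in LM_Ctrl and 0.751 in LM_DFX, higher in both 4T1-LM libraries. Neither was called.

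Of the B ephrins, which span the membrane, Efnb1 fell 3.22-fold (2.84 to 3.65) in 4T1-LM, where it began 3.01 times higher than in 4T1-HM. Its log2 change in 4T1-HM was -0.61. Efnb2, with known roles in arteries and in Ephb4 signalling, was at 29.3 FPKM in HM_Ctrl and 16.6 in HM_DFX, against 37.0 in LM_Ctrl and 16.6 in LM_DFX. The treated libraries did not differ beyond counting error (ratio of LM_DFX over HM_DFX between 0.941 and 1.07), and the fall passed 2-fold in 4T1-LM (2.23-fold, 2.12 to 2.35) and stood at a ratio of 1.77 (1.67 to 1.88) in 4T1-HM. Efnb3 rose in 4T1-HM, 5.61-fold (3.81 to 8.49), from 0.600 FPKM on 32 fragments in HM_Ctrl to 3.37 on 154 fragments in HM_DFX, and was at 0.839 FPKM in LM_Ctrl and 1.31 in LM_DFX.

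Of the A class Eph receptors, Epha1 had the largest fall of all guidance genes in both clones. It fell 23.6-fold (15.9 to 36.7) in 4T1-HM, from 688 fragments to 25, and 9.35-fold (8.21 to 10.7) in 4T1-LM, from 1755 fragments to 261. Of its exon length, 6.01% lies opposite exons of Zyx, which was at 56.9 FPKM in HM_Ctrl and 35.8 in HM_DFX, against 57.2 in LM_Ctrl and 52.1 in LM_DFX, and 5.24% of its sequence is shared with other genes at 31 bases, the highest share among the expressed guidance genes. Epha4 fell in 4T1-LM from 2.07 FPKM in LM_Ctrl to 0.403 in LM_DFX (5.13-fold, 3.94 to 6.77), a call that is lost where the mean FPKM has to reach 1, and was at 1.07 FPKM in HM_Ctrl and 0.138 in HM_DFX, where its log2 change was -0.86 and the ratio of FPKM 7.72 (4.59 to 13.9). Epha2 was not called, with a log2 change of -0.80 in 4T1-HM and -0.21 in 4T1-LM, and its share of the summed A receptor FPKM went from 88.3% in HM_Ctrl to 98.4% in HM_DFX and from 72.7% in LM_Ctrl to 94.3% in LM_DFX. Epha8 was at 0.380 FPKM in HM_Ctrl and 0.236 in HM_DFX, against 1.01 in LM_Ctrl and 0.911 in LM_DFX.

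In the B class, Ephb6, which has no active kinase, was at 5.33 FPKM in HM_Ctrl and 0.701 in HM_DFX, against 2.86 in LM_Ctrl and 0.388 in LM_DFX. Both treated libraries were below both untreated ones, with falls of 7.61-fold (5.43 to 10.9) in 4T1-HM and 7.39-fold (5.04 to 11.2) in 4T1-LM. Ephb4 had a log2 change of -0.81 in 4T1-HM and -0.08 in 4T1-LM. Ephb2 was at 3.23 FPKM in HM_Ctrl and 2.78 in HM_DFX, against 4.32 in LM_Ctrl and 4.64 in LM_DFX, and Ephb3 was at 2.52 FPKM in HM_Ctrl and 2.63 in HM_DFX, against 2.11 in LM_Ctrl and 4.24 in LM_DFX, where LM_DFX was the high library. Neither was called.

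**Figure D4:**
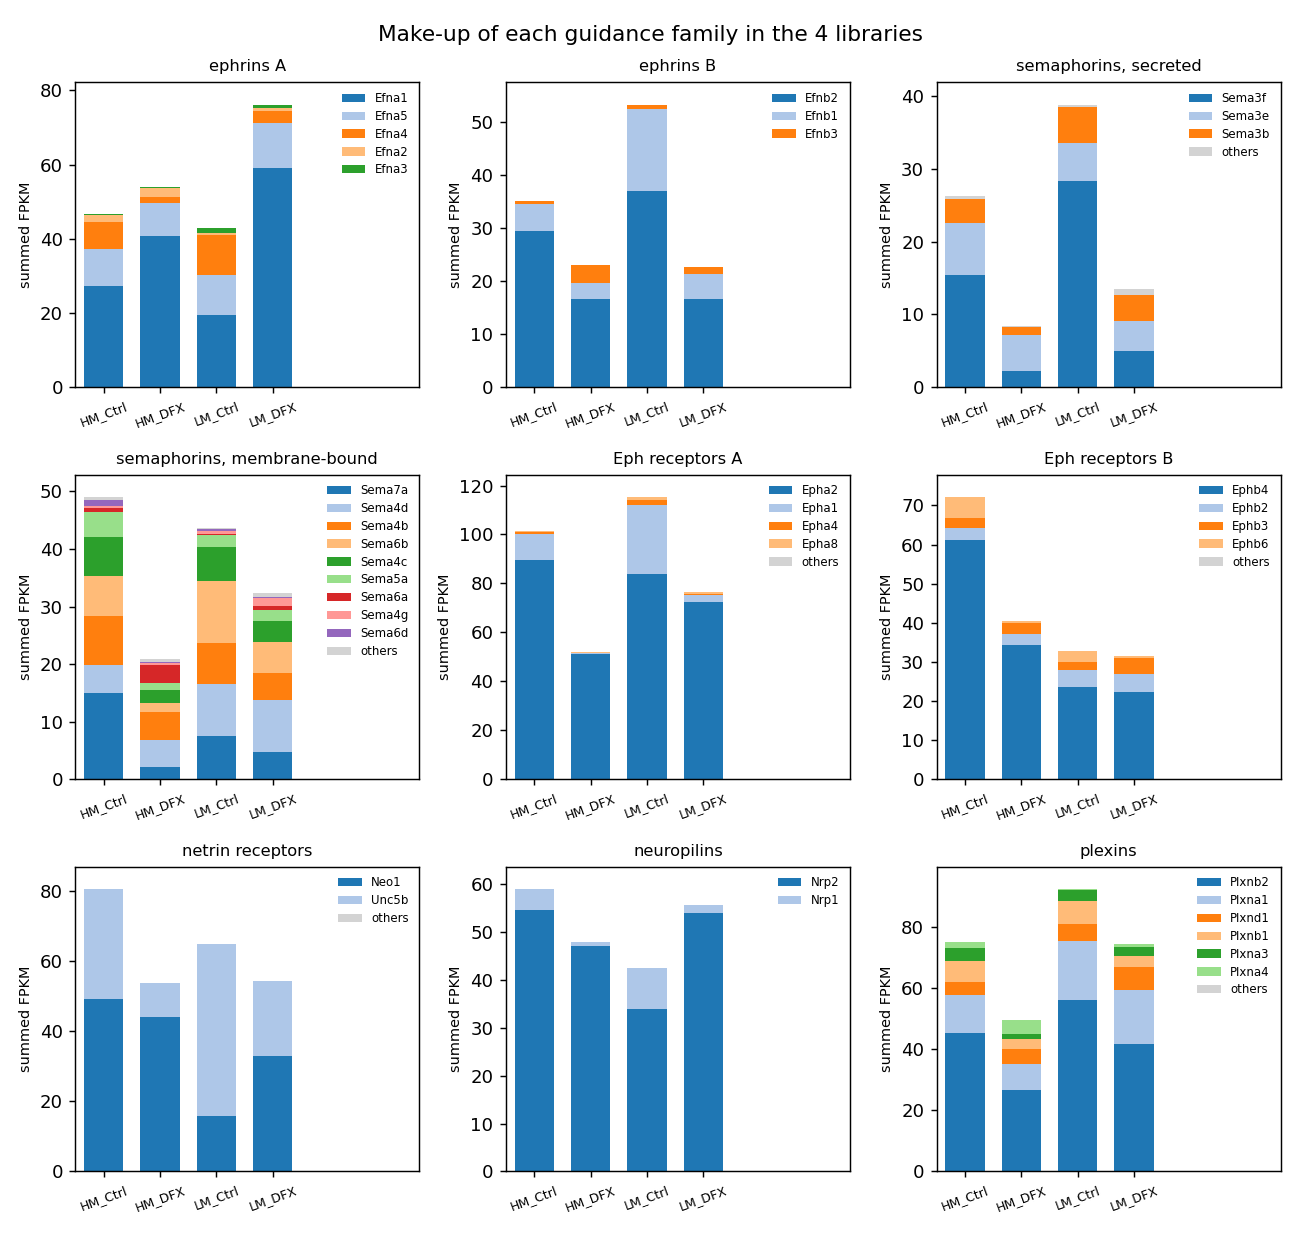
Summed FPKM of 9 guidance families in each library, stacked by gene, with genes under 1 FPKM in all libraries as others. Efna1 among the A ephrins, Epha2 among the A class Eph receptors and Nrp2 among the neuropilins already held the largest share without drug. The share of each was larger with DFX in both clones.

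In the netrin system, Ntn1 fell 2.84-fold (2.54 to 3.19) with DFX in 4T1-HM, from 1289 fragments to 389, and its 7 fragments in each 4T1-LM library leave a ratio of LM_Ctrl over LM_DFX between 0.416 and 4.65, so that no change of this gene was detectable in 4T1-LM at this depth. Unc5b was at 31.2 FPKM in HM_Ctrl and 9.70 in HM_DFX, against 49.0 in LM_Ctrl and 21.4 in LM_DFX, and fell 3.22-fold (2.98 to 3.48) in 4T1-HM and 2.29-fold (2.19 to 2.41) in 4T1-LM. Neo1 rose 2.08-fold (1.99 to 2.19) in 4T1-LM and had a log2 change of -0.16 in 4T1-HM. Neo1 thus made up 61.2% of the summed netrin receptor FPKM in HM_Ctrl and 81.9% in HM_DFX, 24.4% in LM_Ctrl and 60.7% in LM_DFX, and Unc5b was the larger of the pair in LM_Ctrl alone. Unc50 was at 23.1 FPKM in HM_Ctrl and 18.2 in HM_DFX, against 21.5 in LM_Ctrl and 16.6 in LM_DFX.

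The comparison of the clones and that of the chelator in 4T1-HM share the HM_Ctrl library, so the 2 sets of values for a gene are not independent. Side by side, the values of the 4 genes called higher in HM_Ctrl were as follows. Ntn1 had log2 differences of 3.63 between the clones and -1.32 with DFX, Neo1 of 1.58 and -0.16, Plxna4 of 1.41 and 0.85, and Ephb4 of 1.34 and -0.81. Sema7a, which had the largest difference in response between the clones, was at 0.89 between the untreated clones, short of 2-fold, and at -2.34 with DFX.

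With DFX, the clones still differed. There were 3 guidance genes called higher in HM_DFX than in LM_DFX and 4 called lower. This is 7.5% and 10.0% of the 40, against 3.31% and 5.05% of all genes. Ntn1 was higher by an FPKM ratio of 84.7 (40.7 to 212), Plxna4 by 3.97 (3.51 to 4.50) and Sema6a by 4.64 (3.79 to 5.73). Lower in HM_DFX were Epha1, by a ratio of LM_DFX over HM_DFX of 6.85 (4.54 to 10.8), Sema6b, by 3.65 (2.89 to 4.66), Sema3b, by 3.61 (2.78 to 4.75), and Unc5b, by 2.20 (2.04 to 2.39), a call that median-ratio scaling removed. That scaling also called Efna2 higher, which gave 4 called higher and 3 called lower. At any size of difference, 12 of the 40 were higher in HM_DFX and 28 lower, against 5696 and 6872 over all genes. The median log2 difference was -0.46 over the guidance genes and -0.05 over all genes. With median-ratio scaling these medians were -0.41 and 0.0039. Plxna1 lay just outside the 2-fold limit at a log2 difference of -0.998 and a ratio of 2.12 (1.98 to 2.27). Neo1 and Ephb4, called between the untreated clones, were at log2 differences of 0.40 and 0.61 with DFX, and Efnb1 was at -0.53.

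The difference in response, the log2 change in 4T1-HM minus that in 4T1-LM, uses all 4 libraries once. It reached 2-fold upward for 1 guidance gene, Efnb3 (1.12), and downward for 5, Sema7a (-1.78), Ntn1 (-1.29), Neo1 (-1.17), Sema5a (-1.13) and Efna1 (-1.0), which is 2.5% and 12.5% of the 40 against 3.52% and 5.38% of all genes. For Neo1 and Efna1 the gene rose in 4T1-LM, and for Sema7a, Ntn1 and Sema5a it fell in 4T1-HM. The value of Ntn1 reflects its fall in 4T1-HM only, since at 7 fragments in each 4T1-LM library FPKM + 1 could show almost no fall. Its FPKM ratios with over without the drug, 0.352 (0.313 to 0.394) in 4T1-HM and 0.719 (0.215 to 2.40) in 4T1-LM, had overlapping intervals. Among the 6 genes that fell in both clones the difference ran from -0.43 for Unc5b to 0.40 for Nrp1.

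Some guidance genes lie beside each other. Efna1, Efna3 and Efna4 stand in a row on chromosome 3, with gaps of 32.8 kb and 10.4 kb and no other coding gene between them, and with DFX Efna1 was higher in both treated libraries while Efna4 was lower. Sema3b and Sema3f lie 72.3 kb apart on chromosome 9, and both fell in 4T1-HM, while Sema3f fell in 4T1-LM and Sema3b had a log2 change of -0.38. Ephb6 and Epha1 lie 738 kb apart on chromosome 6 with 17 coding genes between them, and both fell in both clones. Sema7a and Neo1, 912 kb apart on chromosome 9, differed, since Sema7a fell in 4T1-HM and Neo1 rose in 4T1-LM. Of the exon length of Efna4, 10.5% lies opposite exons of 4731419I09Rik, which was at 0.227 to 0.551 FPKM in the 4 libraries, and the overlap of exons with the opposite strand reached 14.1% for Efna3, 10.7% for Plxna1 and 7.27% for Sema4c. The libraries were made with a directional kit, which keeps the strand, but the strand setting of the counting is not given in the sources used here, so whether reads from such overlaps were told apart is not known.

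Of 30 other guidance genes listed, 15 passed the filter, and Hjv was not found under that symbol among the protein-coding genes. Between the untreated clones 2 were called higher in HM_Ctrl and 0 lower, 13.3% and 0.0% against 3.65% and 3.15% of all genes. The 2 were Vangl2 (log2 difference 1.15) and Flrt3 (1.14), and Rgma, a ligand of neogenin, was at 0.95. In 4T1-HM with DFX 2 of the 15 rose and 3 fell, both larger shares than the 6.93% and 12.4% of all genes. They were led by Flrt3 (2.02), which binds Unc5 receptors, Rtn4r (1.73), a receptor of myelin inhibitors, and Cdon (-1.32), a partner of neogenin. In 4T1-LM 2 rose and 1 fell, 13.3% and 6.67% against 7.09% and 8.72% of all genes. The share that fell there was thus below that of all genes. Their median log2 change was -0.28 in 4T1-HM and -0.16 in 4T1-LM.

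Of 73 intracellular effectors, 63 passed. Between the untreated clones 2 were called higher in HM_Ctrl, Vav3 (1.17) and Arhgef28 (1.10), both exchange factors, and 1 lower, Nfatc2 (-1.27). These are 3.17% and 1.59% against 3.65% and 3.15% of all genes. With DFX 3 rose and 6 fell in 4T1-HM, 4.76% and 9.52%, below the 6.93% and 12.4% of all genes. They were led by the exchange factor Trio (1.55), the kinase Cdk5 (-1.52) and the Ras regulator Rasa1 (-1.42). In 4T1-LM 3 rose and 1 fell, 4.76% and 1.59%, below the 7.09% and 8.72% of all genes. Their median was -0.16 in 4T1-HM and -0.06 in 4T1-LM, nearer to that of all genes than the median of the ligands and receptors was. All 8 genes listed for proteases that cut guidance proteins, or for subunits of such proteases, passed, and Mmp14 was the 1 called. It went from 63.1 FPKM in HM_Ctrl to 9.04 in HM_DFX and from 67.1 FPKM in LM_Ctrl to 13.7 in LM_DFX. This 1 is 12.5% of the 8, against 12.4% of all genes lower in 4T1-HM and 8.72% in 4T1-LM.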

How the data were processed

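The files held FPKM per gene for 4 libraries, which the authors made from 150-base paired reads of directional libraries from poly(A)-selected RNA. Per the labels and the study's methods, reads passed FastQC, Trimmomatic, HISAT2 (build mm10, from Ensembl) and featureCounts. Versions, the annotation release and the strand setting of the counting are not given in the sources used here. The study tested with edgeR, which was not repeated, because each condition had 1 library and FPKM are no counts. The guidance genes and all lists were chosen with earlier results of these data known.

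Fragments were recovered from the deposited FPKM and GENCODE M21 exon lengths. Values were whole within 0.02 in all 4 libraries for 96.8% of the 18236 genes above 0 with matching coordinates. The same held for all 40 guidance genes that passed, but 7 of them had a solved length. That is the shortest length at which all 4 libraries gave whole values, so for these 7 wholeness is no check. Their fragments and intervals rest on that length, which for Sema5a was 10809 bases against 18686 of GENCODE M21 exon. FPKM ratios have exact 95% conditional binomial intervals, for counting error alone. Fold changes used log2(FPKM + 1), which understates low genes, a minimum of 1 FPKM in 1 library and a 2-fold threshold. All guidance genes that passed are named. Other lists name up to 3 genes with the largest change in each of the comparisons HM_Ctrl with LM_Ctrl and HM_DFX with HM_Ctrl. The alternatives tried were no filter or one on the mean, a pseudocount of 0.1, median-ratio and 75th percentile scaling, 1.5-fold, and leaving out Unc50 and Unc5cl, the last chosen after seeing the data. The steps were tested on simulated data. Python 3.11.15, numpy 2.4.6, pandas 2.3.3, scipy 1.17.1 and matplotlib 3.10.9 were used.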

Additional observations from a re-analysis of the deposited data

Results flagged for a closer look

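Neo1 and Nrp2 had changes with DFX of opposite sign in the 2 clones, beyond the counting interval in each. For Neo1, the netrin receptor neogenin, the log2 change was 1.01 in 4T1-LM and -0.16 in 4T1-HM. For Nrp2, the semaphorin coreceptor, it was 0.65 in 4T1-LM and -0.21 in 4T1-HM. In both cases LM_Ctrl was the library with the lowest level. The changes in 4T1-HM were small, beside a median of -0.10 over all genes there, which median-ratio scaling moved to 0.01. The counting interval does not cover the choice of scaling. The difference was not tested, as each condition had 1 library.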

How the results depend on the processing

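With a pseudocount of 0.1, 7 guidance genes were called higher and 4 lower in HM_Ctrl than in LM_Ctrl, and 5 rose in 4T1-LM with DFX. Between the treated clones, 5 were called higher and 11 lower in HM_DFX than in LM_DFX. At 1.5-fold these became 11 higher and 8 lower, 6, and 6 higher and 12 lower, and 22 fell in 4T1-HM. The other counts stayed within 1.5 times, but with the pseudocount of 0.1 the plexins called with DFX went from 0 in each clone to Plxna4, Plxna3 and Plxnb1 in 4T1-HM and Plxna4 and Plxnb1 in 4T1-LM. A mean filter removed Epha4 from the falls in 4T1-LM, and median-ratio scaling added Efna2 to the genes higher in HM_DFX than in LM_DFX and removed Unc5b from the lower ones, which turned 3 higher and 4 lower into 4 higher and 3 lower. Of 160 single values, 41 moved beyond their counting interval with the pseudocount of 0.1, 16 with median-ratio scaling and 0 with 75th percentile scaling. Leaving out Unc50 and Unc5cl, an alternative chosen after seeing the data, changed no count. Over all genes, the pseudocount of 0.1 gave 883 higher and 674 lower between the untreated clones against 462 and 399, 2397 falls against 1568 in 4T1-HM, 1349 rises and 1721 falls against 898 and 1105 in 4T1-LM, and 810 higher and 1183 lower between the treated clones against 419 and 640. At 1.5-fold, 3297 genes fell in 4T1-HM and 2528 in 4T1-LM, and the other counts over all genes also rose by more than 1.5 times. Falls among the 40 guidance genes in 4T1-LM then went only from 9 to 11. Those over all 12669 genes there went from 1105 to 2528. With the pseudocount of 0.1, 10 of the 40 fell in 4T1-LM, against 13.6% of all genes, which was 8.72% in the main setting. The excess of falls among guidance genes in 4T1-LM was thus smaller with both alternatives. No paired analysis was possible because each condition had 1 library. Depth limits the genes with few fragments, such as Ntn1 in 4T1-LM.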

Other observations

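Several guidance genes under the filter were lower with DFX in both clones. Sema3a, the ligand of Nrp1, had 68 fragments in HM_Ctrl and 6 in HM_DFX, against 14 in LM_Ctrl and 5 in LM_DFX, an FPKM ratio without over with the drug of 9.72 (4.24 to 27.4) in 4T1-HM and 3.90 (1.33 to 13.8) in 4T1-LM. Ntn4, a netrin that binds laminin, had 60 fragments in HM_Ctrl and 5 in HM_DFX, against 27 in LM_Ctrl and 9 in LM_DFX, with ratios of 10.3 (4.17 to 32.9) and 4.17 (1.91 to 10.1). Robo1 was at 0.853 FPKM in HM_Ctrl and 0.0460 in HM_DFX, against 0.109 in LM_Ctrl and 0.0302 in LM_DFX. Sema3c ran the other way, with 3 fragments in HM_Ctrl and 13 in HM_DFX, against 16 in LM_Ctrl and 106 in LM_DFX. Sema4f and Sema3g were also higher with DFX in both clones. Sema4f was at 0.0339 FPKM in HM_Ctrl and 0.105 in HM_DFX, against 0.0841 in LM_Ctrl and 0.397 in LM_DFX. Sema3g was at 0.0395 FPKM in HM_Ctrl and 0.0767 in HM_DFX, against 0.0280 in LM_Ctrl and 0.222 in LM_DFX. Sema6c was lower with DFX in 4T1-HM and slightly higher in 4T1-LM. All of these levels are under 1 FPKM and the genes were named here after their values were seen.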
